A study of Mus musculus with 15 samples.

Results

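Cell cycle and DNA replication genes were followed in the hearts of mice 48 h after abdominal sepsis or a sham operation. The set was a list of 46 gene symbols, and a gene was kept where at least 1 probe set, the group of short probes that reads a transcript on the array, was paired with that gene alone. By this rule 44 of the 46 genes were measured, out of 12393 genes in all. Ccnb1 and Cdkn3 had no such probe set and were dropped. The 44 genes lay on 86 probe sets, 19 genes on 1 and 25 on several, and a gene's value was the mean of its probe sets.

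The hearts came from 15 mice, 1 array each, in 5 groups of 3. Septic mice had a caecal ligation and perforation (CLP): the caecum was tied off at its midpoint and punctured with a needle, which lets gut bacteria into the abdomen. Wild-type mice (C57/BL6) gave 3 CLP hearts named Max Dep, 3 CLP hearts named Min Dep and 3 sham hearts. The meaning of Max Dep and Min Dep is not given in the labels. Knockout mice (congenic B6.129P2-Nos2tm1Lau/J, iNOS KO), which lack inducible nitric oxide synthase in every cell, gave 3 CLP hearts and 3 sham hearts. All mice, sham mice included, had isoflurane anaesthesia, a midline incision with the caecum mobilised, buprenorphine and saline, and, before the heart was taken, ketamine with xylazine and a catheter in the carotid artery. The labels give neither age nor sex, and each heart was ground whole.

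A cell that divides passes from the G1 phase into S phase, where DNA is copied, and then through G2 into mitosis. Cyclins bind cyclin-dependent kinases to drive these steps, the MCM proteins form the helicase that opens DNA at replication origins, and kinesins, kinases and checkpoint proteins separate the chromosomes. Adult heart muscle cells rarely divide, so transcripts of this machinery in a whole heart may come from any of its other cells, and an array of whole tissue does not separate fewer cells of a type from less RNA per cell.

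Scores were relative. Wild-type values were standardised per probe set over the 9 wild-type arrays, so that a gene with a small change and a gene with a large one look alike. Knockout values behaved as log differences whose base is not given. No fold or absolute level could be taken from either table, so the heart's own marker genes could not be checked by level. Each genotype had its own table and its own array model, so genotype, table and array model cannot be told apart, no test crossed the tables, and the deleted Nos2 gene could not be checked. Some arrays stood apart. Wild-type sham replicate 1 scored 2.64 for Xist, an RNA made in female cells, against at most -0.17 on the other 8 wild-type arrays, and -2.48 for the Y-linked gene Eif2s3y. It was the highest of the 3 sham arrays in 24 of the 44 members (54.5%) and in 4208 of the 12393 genes. Knockout sham replicate 2 was opposite for the sex-linked genes, at -6.36 for Xist and 5.76 for Eif2s3y. For Xist, knockout CLP replicate 1 was also low, at -3.23, against 0.68 and 0.20 in CLP replicates 2 and 3. Its Eif2s3y score was -0.06, against 0.10 and 0.05. The array that stood apart was thus high in Xist in wild type but lowest in Xist in the knockout. The sex of most mice may therefore differ between the genotypes. Sex was not tested and cannot be told apart from genotype. Knockout CLP replicate 1 lay between the other CLP replicates in 76.0% of probe sets, against 11.5% and 12.5% for replicates 2 and 3. Its column SD was 0.68, against 1.09 and 1.05 for replicates 2 and 3, and the labels do not say how it was made. It is given among the values below but was left out of knockout means and tests unless stated. Statements on every knockout CLP array include it. If it is not independent of replicates 2 and 3, the SEs and p-values from all 6 knockout arrays are too small. Replicates are listed 1 to 3 and do not pair across groups.

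In wild-type hearts 1 of the 44 genes passed the test after CLP, namely Polb, the polymerase that fills short gaps during base excision repair, which rose. It passed in CLP against sham, in Max Dep against sham and in Min Dep against sham, with limma statistics adjusted over all 12393 genes at 0.05. The share of all genes that passed was 0.718% in CLP against sham (89 genes), 0.452% in Max Dep against sham (56 genes) and 0.0565% in Min Dep against sham (7 genes). No gene passed in Max Dep against Min Dep (0.0%) or in knockout CLP against knockout sham (0.0%). At an unadjusted p under 0.05, 1216 genes (9.81%) were past the threshold in Max Dep against Min Dep and 1476 (11.9%) in the knockout. These wild-type counts came from statistics without moderation, and limma's moderated eBayes statistics passed 0 genes in each wild-type comparison.

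The other members leaned upwards without passing. Of the 44 genes, 33 (75.0%) had a higher mean in wild-type CLP hearts than in sham hearts, against 50.8% of all genes, and their median difference was 0.43, against 0.02 over all genes. The same count, 33 of 44, was found in knockout hearts, against 51.5% of all genes, with a median of 0.42 log units, against 0.03. The mean over the 44 genes ran from -0.14 to 0.27 on wild-type CLP arrays and was 0.08, -0.44 and -0.42 on sham arrays. Sham replicate 1 thus lay within the CLP range. In the knockout that mean was 0.27 to 0.42 on the 3 CLP arrays and -0.22 to -0.06 on the sham arrays. At an unadjusted p under 0.05, 9 of 44 members were higher and 2 of 44 lower in wild-type CLP hearts (all genes 9.23% and 9.38%). Among these, every CLP array was above every sham array for Polb, Mki67 and Cdc45, and below for Ccnd1 and Cdk2, which is 3 members above and 2 below, while 5.89% of all genes were above and 6.11% below. Leaving out 1 array at a time, the wild-type count of members with a higher mean ran from 28 of 44 without sham replicate 2 (median 0.37) to 33 of 44 without sham replicate 1 (median 0.70) or without Max Dep replicate 3 (median 0.51), and it was 28 of 44 with the control probe sets for RNA quality in the fit (median 0.52). In the knockout it ran from 32 to 37 of 44. Without suffixed probe sets, whose names carry an added letter such as _s or _x, 36 members were left. The count was then 25 of 36 in wild type (median 0.53) and 26 of 36 in the knockout (median 0.40).

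The septic groups differed in how many members they placed above sham. In Max Dep hearts 27 of 44 had a higher mean than in sham hearts (all genes 46.8%), and in Min Dep hearts 33 of 44 (all genes 54.5%). Without suffixed probe sets the Max Dep count was 20 of 36, with a median of 0.03 against 0.49 with all probe sets. The Min Dep count was 26 of 36, with a median of 0.84 against 0.74. All Max Dep hearts were above all sham hearts for 9 of 44 members and below for 3 of 44 (all genes 13.8% and 12.7%). All Min Dep hearts were above all sham hearts for 13 of 44 members and below for 3 of 44 (all genes 10.9% and 12.4%). Max Dep hearts had a higher mean than Min Dep hearts for 18 of 44 (all genes 46.7%), and were wholly above them for 4 members and wholly below for 6 (all genes 7.89% and 7.43%). At an unadjusted p under 0.05, Max Dep hearts had 3 members higher and 1 lower than sham hearts (all genes 8.87% and 7.84%). Min Dep hearts had 9 higher and 2 lower than sham hearts (all genes 7.65% and 8.77%). Max Dep hearts had 2 higher and 3 lower than Min Dep hearts (all genes 5.21% and 4.6%). In the knockout both tested CLP hearts were above all sham hearts for 18 of 44 members and below for 1 of 44 (all genes 15.0% and 14.0%). At an unadjusted p under 0.05, 6 of 44 members were higher and 1 of 44 lower in the knockout (all genes 5.83% and 6.08%).

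**Figure D1:**
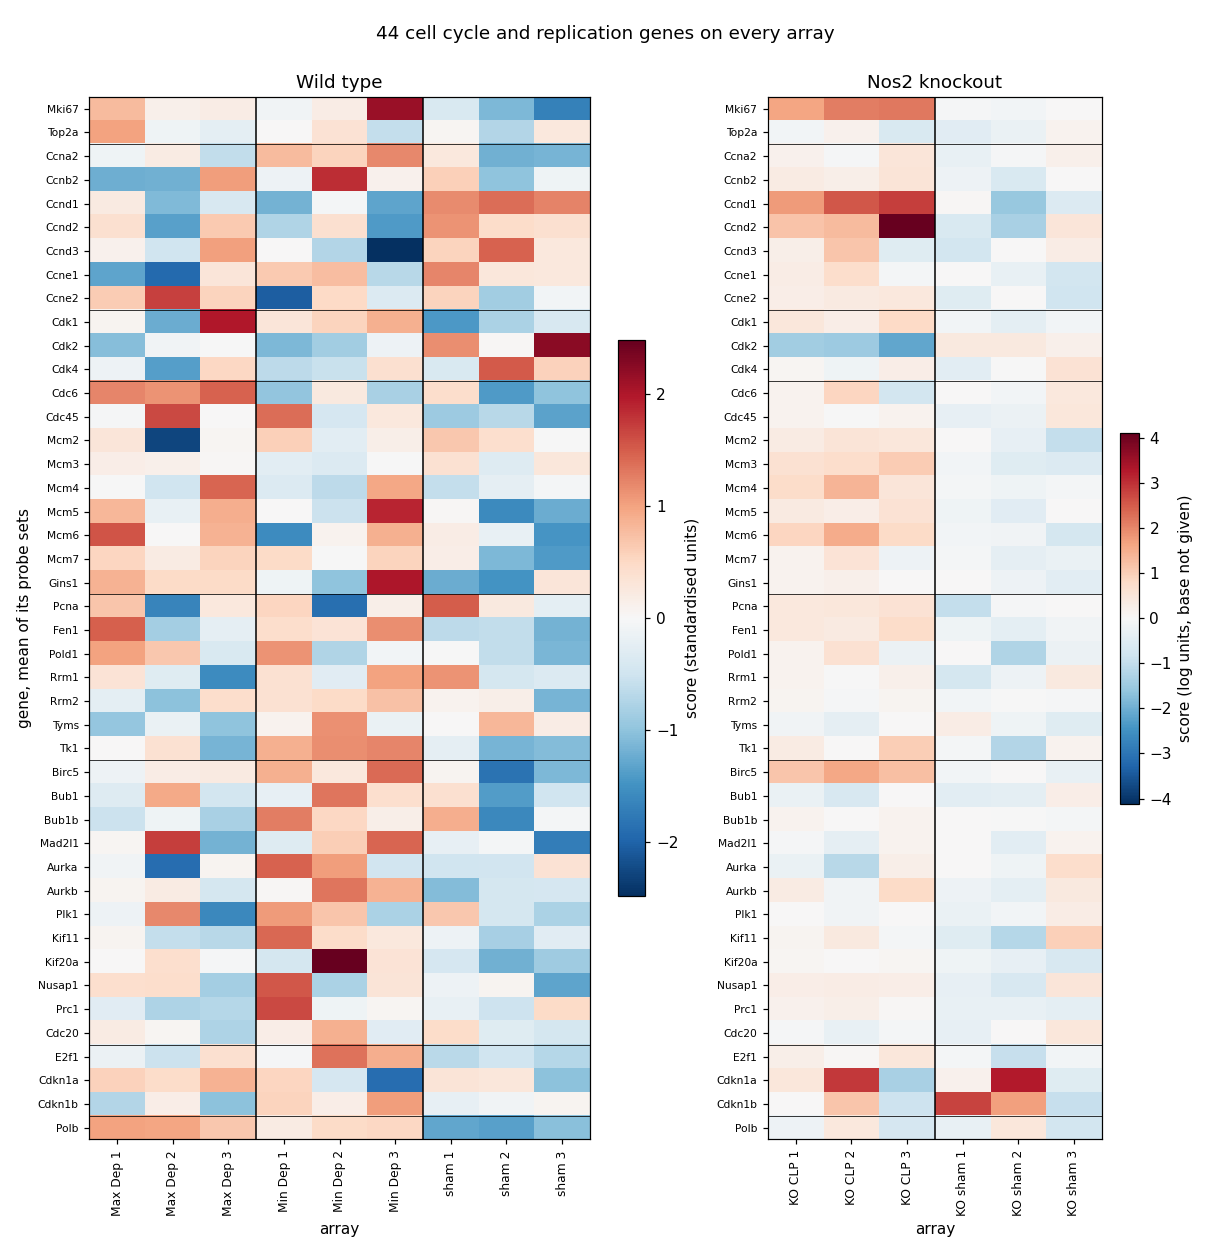
Colour shows the score of each of the 44 genes (down the page, grouped by role with thin lines between roles) on each array, in standardised units for the 9 wild-type arrays and in log units of unstated base for the 6 knockout arrays. Polb is red on all 6 wild-type CLP arrays (0.21 to 0.99) and blue on the 3 sham arrays (-1.34 to -1.04), while Ccnd1 is red on the 3 wild-type sham arrays and on the 3 knockout CLP arrays.

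**Figure D2:**
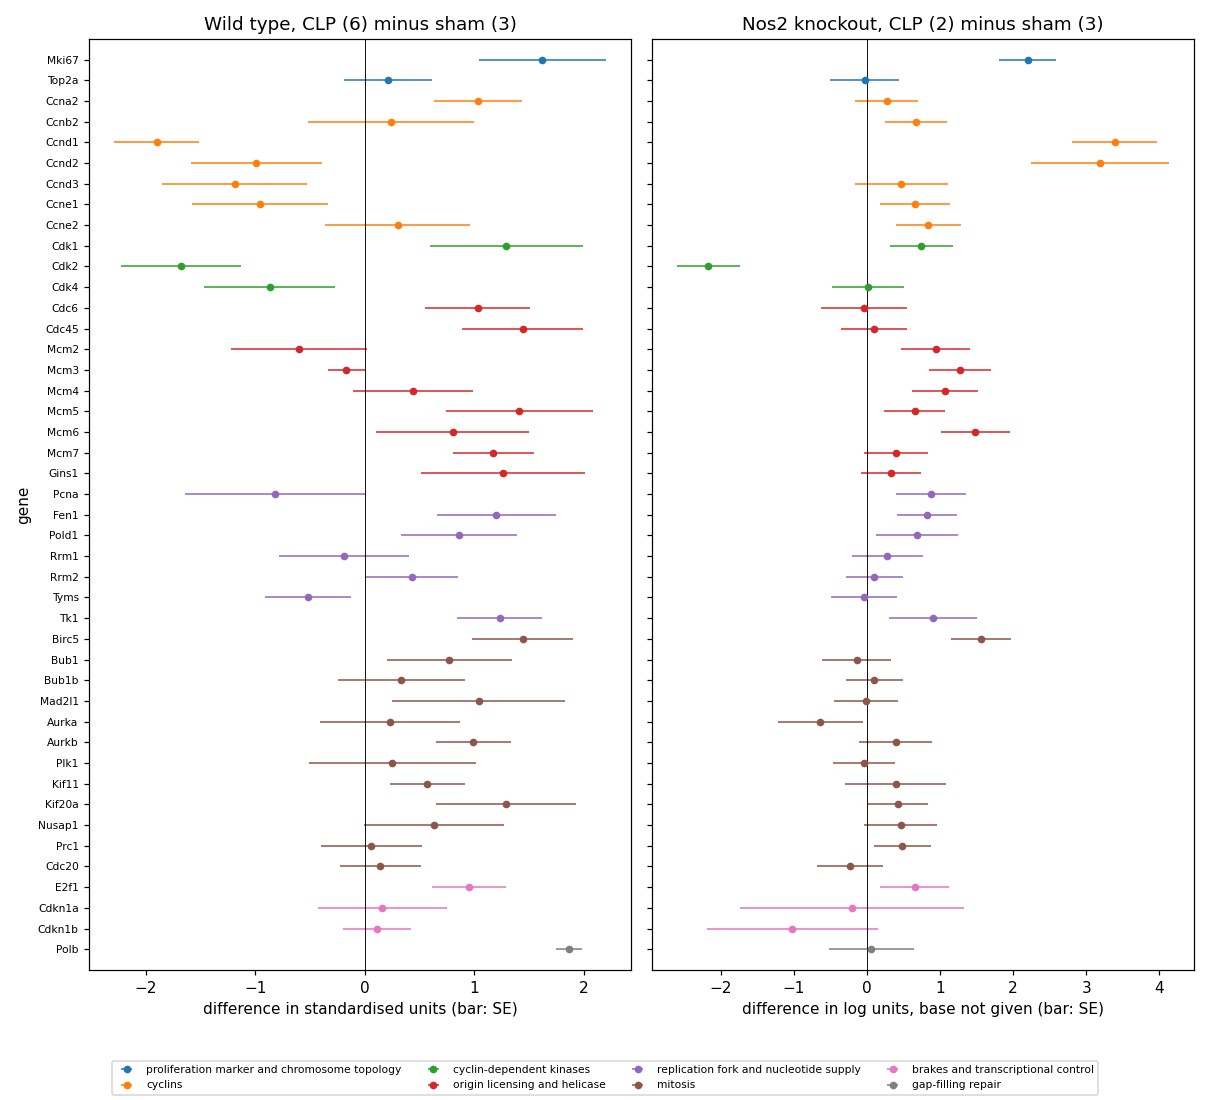
Each point is a gene's CLP minus sham difference, with its SE as a bar, in wild type (6 against 3 arrays, standardised units) and in the Nos2 knockout (2 against 3 arrays, log units of unstated base), and colours give the gene's role. In both panels 33 of the 44 points lie above 0, and Ccnd1 lies at -1.90 in wild type and at 3.39 in the knockout.

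Promoters are shown for 3 genes chosen after their values were seen, to set side by side a gene with a higher mean after CLP in both genotypes (Mki67), a gene with a lower mean in both (Cdk2) and another with a higher mean in both (Birc5). The windows are 300 bases long, reach from before the start of the gene to just after it, and are written 5′ to 3′ on the gene's strand, from RefSeq on GRCm38.p6, and 35 of the 44 genes had an entry there. The motifs searched, known from cell cycle promoters and sought on both strands, were the cell cycle homology element TTTGAA, the CCAAT box CCAAT, bound by NF-Y, and the E2F core TTNNCGC. Capitals mark the matches, on either strand, and overlapping matches are joined.
Mki67 (chr7:135716330-135716629, minus strand): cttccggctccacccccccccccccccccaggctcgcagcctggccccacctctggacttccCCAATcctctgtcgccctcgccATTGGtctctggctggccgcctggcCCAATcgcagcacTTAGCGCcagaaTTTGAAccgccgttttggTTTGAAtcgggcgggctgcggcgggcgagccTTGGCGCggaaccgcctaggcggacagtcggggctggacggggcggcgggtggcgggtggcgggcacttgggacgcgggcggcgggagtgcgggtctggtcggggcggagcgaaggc
Cdk2 (chr10:128705002-128705301, minus strand): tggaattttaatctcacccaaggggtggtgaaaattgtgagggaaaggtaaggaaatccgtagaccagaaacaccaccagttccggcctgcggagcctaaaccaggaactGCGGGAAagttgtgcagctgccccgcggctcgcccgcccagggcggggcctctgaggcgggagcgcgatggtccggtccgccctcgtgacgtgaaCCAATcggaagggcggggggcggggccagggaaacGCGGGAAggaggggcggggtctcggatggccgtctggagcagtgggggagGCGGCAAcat
Birc5 (chr11:117848987-117849286, plus strand): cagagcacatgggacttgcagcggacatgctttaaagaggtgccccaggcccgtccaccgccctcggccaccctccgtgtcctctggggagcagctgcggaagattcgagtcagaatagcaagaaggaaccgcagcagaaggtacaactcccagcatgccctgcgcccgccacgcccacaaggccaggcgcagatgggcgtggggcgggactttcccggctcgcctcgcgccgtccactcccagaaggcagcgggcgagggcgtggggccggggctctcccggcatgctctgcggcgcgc
The Mki67 window held 2 TTTGAA, 3 CCAAT and 2 E2F matches. The Cdk2 window held 0, 1 and 3 of them in the same order. The Birc5 window held none of the 3 motifs. Over the 35 member genes with an entry, 13 (37.1%) had a TTTGAA match, 23 (65.7%) a CCAAT match and 20 (57.1%) an E2F match, against 20.2%, 41.1% and 22.6% of all 27025 genes in the table. These are matches of letters only.

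Mki67 encodes Ki-67, the nuclear protein used to mark dividing cells. In wild type it scored 0.79, 0.12 and 0.19 in Max Dep hearts, -0.08, 0.19 and 2.15 in Min Dep hearts, and -0.37, -1.12 and -1.68 in sham hearts. All 6 CLP hearts were above all 3 sham hearts, with 1 Min Dep heart far above the rest. The difference was 1.62 ± 0.58 (SE, 6 against 3), which did not pass (adjusted p = 0.222). Knockout hearts gave 1.63, 2.11 and 2.18 in CLP hearts, against -0.06, -0.10 and 0.00 in sham hearts. The knockout groups did not overlap either, and the sham hearts lay within a narrow band. That difference was 2.20 ± 0.39 log units (2 against 3), with an adjusted p of 0.106, and with all 6 knockout arrays it was 2.03 ± 0.29 and passed (adjusted p = 0.0295), as did 2.38% of all genes in that setting and 3 of the 44 members. Without knockout sham replicate 2 it was 2.18 ± 0.44. Mki67 was the only member above sham on every CLP array in both genotypes, as were 2.15% of all genes.

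Top2a, the topoisomerase that untangles chromosomes before they separate, did not follow Mki67. Its scores were 1.00, -0.11 and -0.24 in Max Dep hearts, 0.00, 0.35 and -0.59 in Min Dep hearts, and 0.05, -0.73 and 0.27 in sham hearts. The groups overlapped and the difference was 0.21 ± 0.40 (adjusted p = 0.837). Its probe sets disagreed in wild type, at -0.88 ± 0.81 and 1.29 ± 0.67. In the knockout Top2a scored -0.12, 0.17 and -0.62 in CLP hearts and -0.47, -0.26 and 0.14 in sham hearts, a difference of -0.03 ± 0.47 log units.

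The D cyclins drive cells through the G1 phase by activating Cdk4 and its relative Cdk6. Their CLP means lay on opposite sides of the sham means in the 2 genotypes, but only for Ccnd1 were the groups apart in both. In wild type the means of Ccnd1, Ccnd2 and Ccnd3 were all lower in CLP hearts than in sham hearts, in CLP as a whole and in Max Dep and Min Dep separately, and this held in each alternative that gave the gene means again. In the knockout all 3 were higher, and 2 or 3 of them in the alternatives. None passed the test in either genotype.

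Ccnd1 scored 0.23, -1.10 and -0.40 in Max Dep hearts, -1.18, -0.05 and -1.30 in Min Dep hearts, and 1.18, 1.38 and 1.23 in sham hearts of wild-type mice. The 3 sham hearts were close together and above all 6 CLP hearts. The difference was -1.90 ± 0.39 (adjusted p = 0.0818), and the 3 probe sets of the gene gave -2.02, -1.78 and -1.90. In the knockout Ccnd1 scored 1.74, 2.55 and 2.83 in CLP hearts, against 0.04, -1.57 and -0.57 in sham hearts. Here all 3 CLP hearts were above all 3 sham hearts. The difference was 3.39 ± 0.58 log units (adjusted p = 0.105), its 3 probe sets gave 3.13, 4.31 and 2.74, and with all 6 arrays it was 3.08 ± 0.51 and passed (adjusted p = 0.0421). Without knockout sham replicate 2 it was 2.95 ± 0.49, and in wild type without sham replicate 1 it was -1.94 ± 0.50. Ccnd1 was the only member whose groups were apart in opposite directions in the 2 genotypes, as were 1.02% of all genes (126), and the difference between genotypes was not tested, since each has its own table.

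Ccnd2 scored 0.39, -1.35 and 0.64 in Max Dep hearts, -0.74, 0.40 and -1.41 in Min Dep hearts, and 1.11, 0.45 and 0.39 in wild-type sham hearts. The groups overlapped, and the difference was -0.99 ± 0.60 (adjusted p = 0.448). Knockout hearts gave 1.17, 1.31 and 4.11 in CLP hearts, against -0.63, -1.33 and 0.49 in sham hearts. CLP replicate 3 was far above the others, and the difference was 3.19 ± 0.94 log units (adjusted p = 0.252), or 1.79 ± 0.85 without that array as well (1 CLP array left). Of its 7 probe sets 6 were positive in the knockout, from 3.03 to 5.59, and 1 was at -1.93 ± 1.54. In wild type 6 of the 7 were negative, from -1.65 to -0.57, and 1 was at 0.10 ± 0.91.

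Ccnd3 scored 0.10, -0.50 and 1.02 in Max Dep hearts, 0.00, -0.73 and -2.48 in Min Dep hearts, and 0.55, 1.47 and 0.26 in wild-type sham hearts. Only the Min Dep hearts were all below the sham hearts, and the CLP difference was -1.19 ± 0.66 (adjusted p = 0.404). In the knockout it scored 0.23, 1.15 and -0.51 in CLP hearts and -0.75, 0.00 and 0.32 in sham hearts, which overlapped (0.47 ± 0.64 log units).

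The later cyclins were mixed in wild type. Ccna2, the cyclin of S phase and G2, had a difference of 1.03 ± 0.40 (adjusted p = 0.253) and lay above sham on all 3 Min Dep arrays, and Ccnb2, a mitotic cyclin, had one of 0.24 ± 0.76. Of the E cyclins, which act at entry into S phase, Ccne1 had a difference of -0.96 ± 0.62 and Ccne2 one of 0.30 ± 0.66. In the knockout all 7 cyclins had a positive difference, from 0.27 to 3.39 log units. For 4 of the 7 both tested CLP hearts were above all sham hearts, as for 15.0% of all genes.

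Among the kinases, Cdk2, the partner of the E cyclins and of cyclin A, had a lower mean after CLP in both genotypes. It scored -1.05, -0.09 and -0.01 in Max Dep hearts, -1.11, -0.86 and -0.12 in Min Dep hearts, and 1.16, 0.02 and 2.24 in wild-type sham hearts. The groups did not overlap, but sham replicate 2 lay just above the highest CLP heart. The difference was -1.68 ± 0.55 (adjusted p = 0.188). In the knockout Cdk2 scored -1.42, -1.50 and -2.14 in CLP hearts, against 0.41, 0.41 and 0.22 in sham hearts. No CLP heart came near the sham hearts. That difference was -2.17 ± 0.43 log units (adjusted p = 0.127), and with all 6 arrays it was -2.03 ± 0.31 and passed (adjusted p = 0.0350). Cdk2, read by 1 probe set, was the only member below sham on every CLP array in both genotypes, as were 1.34% of all genes.

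Cdk1, the kinase that starts mitosis, scored 0.07, -1.23 and 1.98 in Max Dep hearts, 0.30, 0.55 and 0.89 in Min Dep hearts, and -1.43, -0.79 and -0.39 in wild-type sham hearts. The Min Dep hearts were all above the sham hearts, while 2 Max Dep hearts lay above them and 1 lay within their range. The CLP difference was 1.29 ± 0.70 (adjusted p = 0.395). Its knockout scores were 0.48, 0.26 and 0.82 in CLP hearts, against -0.10, -0.39 and -0.11 in sham hearts, a difference of 0.74 ± 0.43 log units. Cdk4, the partner of the D cyclins, had differences of -0.87 ± 0.60 in wild type and 0.01 ± 0.49 log units in the knockout.

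**Figure D3:**
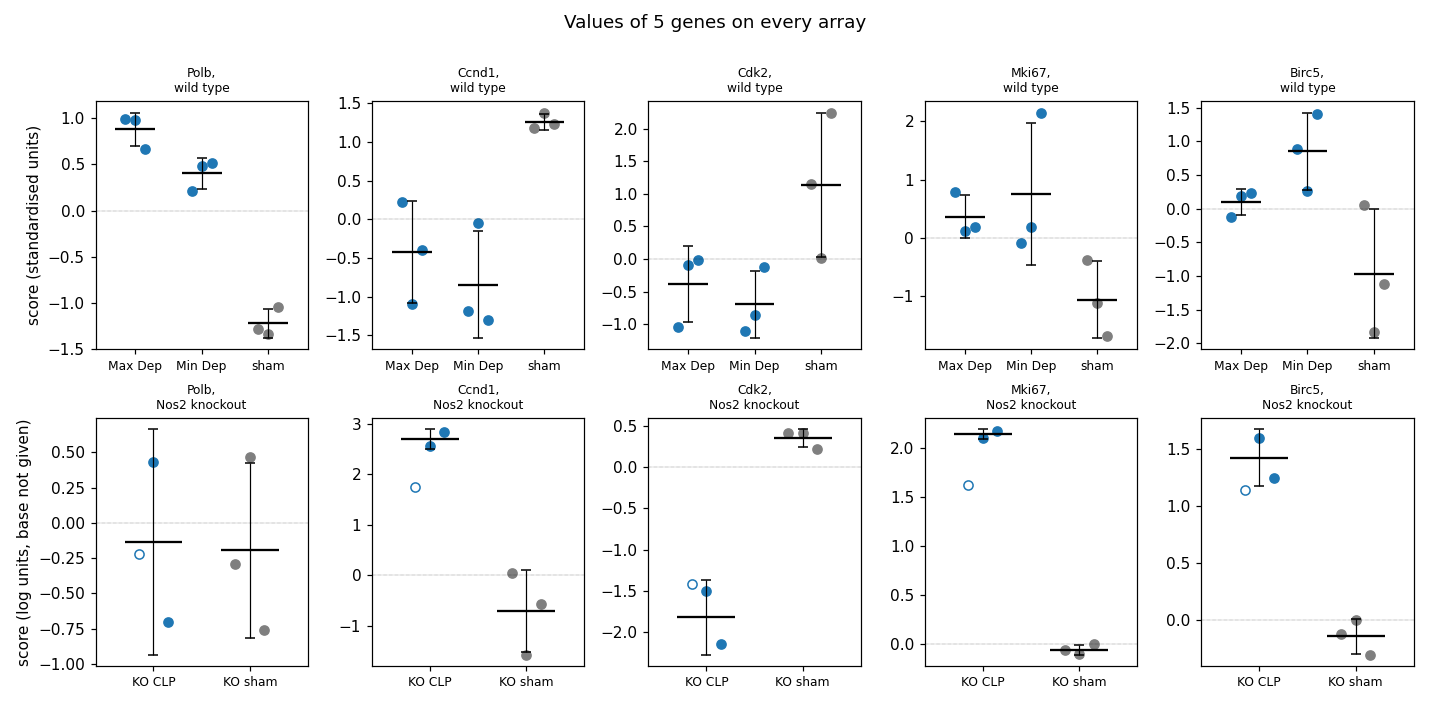
Points are arrays, lines are group means and bars are SDs of 5 genes, with the wild-type groups above (standardised units) and the knockout groups below (log units of unstated base), and the open circle is knockout CLP replicate 1, which is not in its mean. Polb separates CLP from sham in wild type but spans the same range in the knockout groups (-0.70 to 0.43 in CLP, -0.76 to 0.47 in sham), and Cdk2 is lower and Mki67 higher in CLP in both genotypes.

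The genes that license and open replication origins were mostly higher after CLP and none passed. Of the 9, 7 had a positive difference in wild type (median 1.03) and 8 in the knockout (median 0.65 log units). Cdc6, which loads the MCM helicase onto origins, scored 1.22, 1.11 and 1.47 in Max Dep hearts, -0.97, 0.25 and -0.81 in Min Dep hearts, and 0.43, -1.40 and -0.99 in sham hearts. The Max Dep hearts were above all the others. Max Dep exceeded Min Dep by 1.78 ± 0.56 (adjusted p = 0.443) and sham by 1.92 ± 0.56 (adjusted p = 0.175). In the knockout Cdc6 scored 0.13, 0.88 and -0.75 in CLP hearts and 0.02, -0.12 and 0.42 in sham hearts, which overlapped. Cdc45 and Gins1, partners of the MCM ring in the working helicase, had wild-type differences of 1.44 ± 0.55 (adjusted p = 0.245) and 1.26 ± 0.75, and knockout differences of 0.10 ± 0.45 and 0.33 ± 0.41 log units.

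Mcm2 to Mcm7 form the helicase ring itself. In the knockout all 6 had a positive difference, from 0.40 ± 0.44 to 1.48 ± 0.47 log units. For 5 of the 6 both tested CLP hearts lay above all sham hearts, as for 15.0% of all genes. The mean over the 6 genes was 0.52, 0.84 and 0.53 on the knockout CLP arrays and lay between -0.43 and -0.09 on the sham arrays. In wild type 4 of the 6 were positive, and the mean over the 6 ranged from -0.44 to 0.74 on CLP arrays and from -0.65 to 0.14 on sham arrays, which overlapped.

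Mcm7 had the smallest adjusted p of the ring in wild type (0.177). It scored 0.53, 0.21 and 0.56 in Max Dep hearts, 0.47, -0.01 and 0.56 in Min Dep hearts, and 0.16, -1.11 and -1.40 in sham hearts. Sham replicate 1 reached into the CLP range, and the difference was 1.17 ± 0.37. Of its 4 probe sets 3 were positive, from 1.38 to 1.83, and 1 was at -0.20. In the knockout Mcm7 scored 0.15, 0.56 and -0.22 in CLP hearts and -0.07, -0.36 and -0.26 in sham hearts.

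Mcm2 scored 0.30, -2.28 and 0.04 in Max Dep hearts, 0.59, -0.27 and 0.14 in Min Dep hearts, and 0.66, 0.42 and -0.01 in wild-type sham hearts. Max Dep replicate 2 lay far below the rest, and the difference was -0.60 ± 0.62 (adjusted p = 0.672), or -0.20 ± 0.26 without that array. In the knockout Mcm2 scored 0.34, 0.53 and 0.45 in CLP hearts, against 0.00, -0.35 and -0.99 in sham hearts, which did not overlap (0.94 ± 0.47 log units, adjusted p = 0.513).

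At the replication fork and in nucleotide supply, 4 of 7 genes had a positive difference in wild type and 6 of 7 in the knockout, and none passed. Pcna, the clamp that holds polymerases on DNA, scored 0.68, -1.64 and 0.26 in Max Dep hearts, 0.53, -1.87 and 0.15 in Min Dep hearts, and 1.50, 0.24 and -0.24 in wild-type sham hearts. The groups overlapped in part, with sham replicate 1 above all CLP hearts and 2 CLP hearts below all sham hearts (-0.82 ± 0.82, adjusted p = 0.661). In the knockout Pcna scored 0.42, 0.47 and 0.60 in CLP hearts, against -0.98, -0.05 and 0.00 in sham hearts, which did not overlap (0.88 ± 0.48 log units, adjusted p = 0.559).

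Tk1, the thymidine kinase of S phase, scored 0.01, 0.37 and -1.15 in Max Dep hearts, 0.88, 1.15 and 1.21 in Min Dep hearts, and -0.22, -1.16 and -1.07 in wild-type sham hearts. The Min Dep hearts were above all the others. Min Dep exceeded sham by 1.90 ± 0.45 (adjusted p = 0.136), and the Max Dep minus Min Dep difference was -1.33 ± 0.45 (adjusted p = 0.457). In the knockout Tk1 scored 0.34, 0.00 and 1.01 in CLP hearts and -0.08, -1.21 and 0.13 in sham hearts, which overlapped. Fen1, the flap nuclease that trims Okazaki fragments, had differences of 1.20 ± 0.54 in wild type and 0.82 ± 0.41 log units in the knockout, and Pold1, the catalytic subunit of polymerase delta, 0.86 ± 0.53 and 0.68 ± 0.56. The ribonucleotide reductase genes Rrm1 and Rrm2 and the thymidylate synthase gene Tyms lay between -0.52 and 0.43 in wild type and between -0.04 and 0.28 log units in the knockout.

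The 12 genes of mitosis all had a higher mean in wild-type CLP hearts than in sham hearts, and none of the 12 passed. Their differences ran from 0.06 for Prc1, which bundles the spindle midzone, to 1.44 for Birc5, with a median of 0.60. All 12 were also higher in Min Dep than in sham hearts (median 0.95), and all 12 were lower in Max Dep than in Min Dep hearts (median -0.70, against -0.08 over all genes). The lower count was 9 of 12 without Max Dep replicate 3 (median -0.59) and 11 of 12 without any 1 of the Min Dep arrays. Of 51 further mitosis genes, counted again below, 21 (41.2%) were higher and 30 lower in Max Dep than in Min Dep hearts (median -0.21). Over all genes 46.7% were higher in that comparison. Against sham, 8 of the 12 were higher in Max Dep hearts (median 0.23). These comparisons share arrays, so their counts are not separate evidence. The mean over the 12 genes was -0.06, 0.15 and -0.60 on Max Dep arrays, 0.71, 0.72 and 0.31 on Min Dep arrays, and -0.01, -0.75 and -0.56 on sham arrays. The Min Dep arrays were above all the others, and sham replicates 1 and 3 lay within the Max Dep range. Without sham replicate 1, 11 of the 12 were higher in CLP than in sham hearts. In the knockout 7 of the 12 were higher (median 0.24 log units), and leaving out 1 array gave from 6 of 12 (median 0.01 without sham replicate 2, -0.02 without CLP replicate 3) to 11 of 12 (median 0.23 without CLP replicate 2).

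Birc5 encodes survivin, which takes chromosome passenger proteins to the centromere and also blocks cell death, and it is described here after its values were seen. It scored -0.12, 0.19 and 0.23 in Max Dep hearts, 0.88, 0.26 and 1.41 in Min Dep hearts, and 0.06, -1.83 and -1.12 in wild-type sham hearts. The only overlap was between sham replicate 1 and Max Dep replicate 1. The difference was 1.44 ± 0.46 (adjusted p = 0.182), and without sham replicate 1 it was 1.95 ± 0.36 (adjusted p = 0.126). Its knockout scores were 1.14, 1.60 and 1.25 in CLP hearts, against -0.12, 0.00 and -0.30 in sham hearts. Those groups did not overlap, and the difference was 1.56 ± 0.41 log units (adjusted p = 0.203), or 1.47 ± 0.28 with all 6 arrays (adjusted p = 0.0525).

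Aurka, a kinase that matures the spindle poles, scored -0.08, -1.88 and 0.06 in Max Dep hearts, 1.47, 1.04 and -0.48 in Min Dep hearts, and -0.50, -0.47 and 0.36 in wild-type sham hearts. The groups overlapped (0.23 ± 0.64, adjusted p = 0.895). In the knockout it scored -0.28, -1.14 and 0.25 in CLP hearts and 0.02, -0.18 and 0.73 in sham hearts, a difference of -0.64 ± 0.58 log units. Its relative Aurkb, the kinase of the chromosome passenger complex, had a wild-type difference of 0.99 ± 0.34 (adjusted p = 0.202). Kif11, the motor that pushes spindle poles apart, was lower in Max Dep than in Min Dep hearts by a difference of -1.11 ± 0.39 (adjusted p = 0.466), with no overlap. The other mitosis genes (Bub1, Bub1b, Mad2l1, Plk1, Kif20a, Nusap1, Prc1 and Cdc20) had knockout differences between -0.23 and 0.48 log units.

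**Figure D4:**
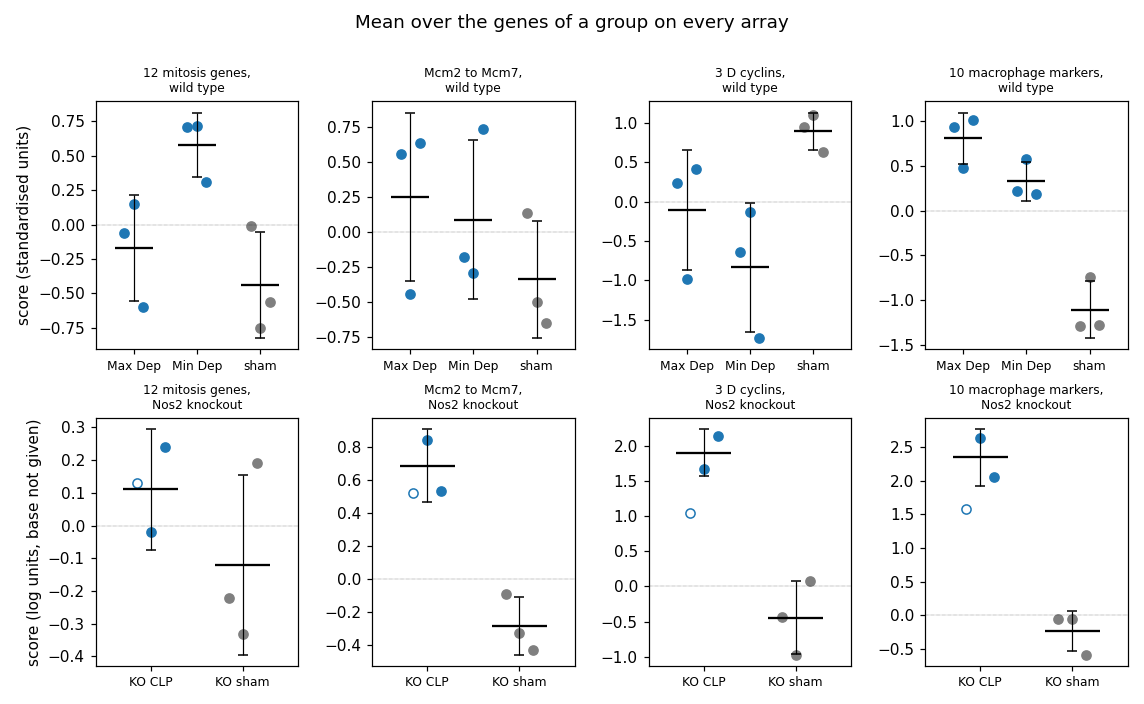
Points are the mean score of a group of genes on each array, lines are group means and bars SDs, with wild-type arrays above (standardised units) and knockout arrays below (log units of unstated base, open circle for knockout CLP replicate 1, not in its mean). The 12 mitosis genes are highest on the Min Dep arrays (0.31 to 0.72), the 3 D cyclins are below all sham arrays (0.63 to 1.10) on every wild-type CLP array and above the knockout sham arrays (-0.97 to 0.08) on every knockout CLP array, and the 10 macrophage markers are above sham on every CLP array.

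Of the brakes, Cdkn1a encodes p21, an inhibitor of cyclin-dependent kinases that p53 induces. It scored 0.58, 0.46 and 0.86 in Max Dep hearts, 0.54, -0.41 and -1.88 in Min Dep hearts, and 0.31, 0.29 and -1.01 in wild-type sham hearts. The Max Dep hearts were all above the sham hearts, the Min Dep hearts spanned them, and the CLP difference was 0.16 ± 0.59 (adjusted p = 0.918). That mean hides a disagreement, since its 2 probe sets gave -0.71 ± 0.80 and 1.03 ± 0.45 for CLP against sham. In the knockout it scored 0.45, 2.89 and -1.34 in CLP hearts and 0.18, 3.27 and -0.49 in sham hearts, so that the spread within each group was far larger than the difference of -0.21 ± 1.53 log units.

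Cdkn1b encodes p27, the inhibitor that holds resting cells out of the cycle. It scored -0.72, 0.17 and -1.01 in Max Dep hearts, 0.56, 0.16 and 1.04 in Min Dep hearts, and -0.21, -0.08 and 0.07 in wild-type sham hearts. Its 2 probe sets were opposed, at -1.18 ± 0.41 and 1.39 ± 0.55 for CLP against sham, so the gene's mean difference of 0.11 ± 0.31 hides a disagreement. Knockout hearts scored 0.02, 1.14 and -0.86 in CLP hearts and 2.78, 1.67 and -0.96 in sham hearts (-1.02 ± 1.17 log units, and from -2.08 to -0.03 leaving out 1 array). E2f1, the transcription factor that turns on S phase genes, had differences of 0.95 ± 0.34 in wild type (adjusted p = 0.225) and 0.65 ± 0.47 log units in the knockout.

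Polb belongs to repair rather than to the fork, and it had the smallest p of the 44 members in each wild-type comparison. It scored 0.99, 0.98 and 0.67 in Max Dep hearts, 0.21, 0.48 and 0.52 in Min Dep hearts, and -1.28, -1.34 and -1.04 in sham hearts. The 3 groups did not overlap, with Max Dep hearts highest and sham hearts lowest. CLP exceeded sham by 1.86 ± 0.12 (adjusted p = 0.0199), Max Dep exceeded sham by 2.10 ± 0.14 (adjusted p = 0.0209) and Min Dep exceeded sham by 1.62 ± 0.14 (adjusted p = 0.0446). Max Dep exceeded Min Dep by 0.47 ± 0.14, which did not pass (adjusted p = 0.437). Its 3 probe sets gave 1.84 ± 0.44, 1.77 ± 0.42 and 1.96 ± 0.25 for CLP against sham. Where every probe set was tested by itself, only the last of them passed (adjusted p = 0.0888, 0.0887 and 0.0318). The call for CLP against sham held only when the array left out was Min Dep replicate 2 or Max Dep replicate 3, and was lost without any other wild-type array. Without sham replicate 1, CLP exceeded sham by 1.83 ± 0.15 (adjusted p = 0.066). In the knockout Polb scored -0.22, 0.43 and -0.70 in CLP hearts and -0.29, 0.47 and -0.76 in sham hearts. Those groups covered the same range, the difference was 0.06 ± 0.58 log units, and the 3 probe sets gave -1.46, 0.54 and 1.09.

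Across the genotypes, 24 of the 44 members had a positive difference in both and 2 a negative one in both, while 9 were positive in wild type alone and 9 in the knockout alone. Over all genes these shares were 28.7%, 26.4%, 22.1% and 22.8% in the same order. The probe sets of a member did not always speak alike: of the 25 members with several, all probe sets had 1 sign in 15 for wild type and in 16 for the knockout.

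Other genes of the same pathways were counted by list. Of 39 further replication genes, 26 had a positive difference in wild-type CLP hearts (median 0.35) and 30 in knockout CLP hearts (median 0.44 log units). Of 51 further mitosis genes, 37 were positive in wild type (median 0.42) and 38 in the knockout (median 0.25 log units). None of either list passed. The smallest p-values in wild type were those of Rfc2, a subunit of the clamp loader (1.91 ± 0.35, adjusted p = 0.0702), and Pole4, a subunit of polymerase epsilon (-1.93 ± 0.38, adjusted p = 0.0725). Of 30 further G1 genes 16 were positive (median 0.05), and 1 of them fell, Ccng1, a cyclin G gene induced by p53, by a difference of -1.91 ± 0.21 (adjusted p = 0.0307). It is also 1 of the 19 measured p53 targets, of which 8 were positive (median -0.06) and no other passed. Rb1, the retinoblastoma gene that restrains E2F factors, differed by 1.68 ± 0.28 (adjusted p = 0.0569). Of 16 base excision repair genes, the pathway in which Polb works, 9 were positive (median 0.17) and none passed. Xrcc1, a scaffold of that pathway, differed by 1.65 ± 0.55 in wild type (adjusted p = 0.197) and by -1.72 ± 0.41 log units in the knockout (adjusted p = 0.173).

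Markers of other cells moved with CLP beside these genes. All 10 macrophage and monocyte markers had a positive difference in wild type, with a median of 1.87, and Tyrobp and Fcer1g rose. Their mean over the list was 0.18 to 1.01 on wild-type CLP arrays, against -1.29 to -0.74 on sham arrays, and 1.58 to 2.64 on knockout CLP arrays, against -0.58 to -0.06 on sham arrays. Of 9 neutrophil markers 7 were positive in wild type (median 1.50, S100a8 and S100a9 rose) and 9 in the knockout (median 3.34 log units). All 10 fibroblast markers had a negative difference in wild type (median -1.57), with a list mean of -1.70 to 0.28 on CLP arrays, against 0.99 to 1.12 on sham arrays. In the knockout 8 of the 10 were negative (median -1.45 log units). Of 10 endothelial markers 7 were positive in wild type (median 1.03), with a list mean of -0.08 to 0.92 on CLP arrays, against -1.06 to 0.09 on sham arrays, while 9 were negative in the knockout (median -2.68 log units). The lists of heart muscle, T and NK cell and B cell markers had medians between -0.24 and 0.01 in wild type and between -0.77 and -0.04 log units in the knockout. The 5 measured erythroid markers had a median of -0.09 in wild type and -0.17 log units in the knockout. No gene of these lists was past the threshold, but their members did not all lie near the median. In wild type the erythroid markers Hemgn and Slc4a1 differed by 1.70 ± 0.44 and -1.30 ± 0.40. The 10 heart muscle markers ran from -1.78 to 0.83 in wild type and from -3.59 to 0.89 log units in the knockout. In Max Dep against Min Dep hearts all 6 T and NK cell markers were lower (median -0.87). There 4 of 5 B cell markers were also lower (median -0.87). Each other marker list had a positive median in that comparison, from 0.25 to 0.66, and no marker passed. The part of these cells in the scores of the cell cycle genes was not tested. Control probe sets at the 5′ ends of transcripts minus those at the 3′ ends, a sign of RNA quality, gave -0.81, 0.53 and -1.85 in Max Dep hearts, 0.07, -0.08 and -0.56 in Min Dep hearts, and 0.55, 0.39 and 1.76 in sham hearts, and with it in the fit Polb differed by 2.02 ± 0.15 (adjusted p = 0.0547).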

How the data were processed

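The authors deposited 2 value tables of 22690 probe sets each, and the unit of both is a score. No label or header names the software that made them. In the deposited wild-type table every probe set had a mean of 0 and an SD of 1.0 once a linear step per array was undone (largest deviation 1.0e-07). The deposited knockout scores ran from -7.78 to 8.18, and 54.2% of probe sets held an exact 0. No intensities were used, so signal over background is unknown and dim probe sets were not filtered. Of the 22626 probe sets besides 64 controls, the 20380 paired with 1 gene by the platform annotation were kept. 691 had several genes and 1555 had none.

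The tests were linear models fitted with limma 3.58.1 (R 4.3.3), with Benjamini-Hochberg adjustment over 12393 genes at 0.05. The 9 wild-type arrays shared 1 fit without moderation (eBayes passes 0 genes there). The choice follows an earlier analysis of these data, which settled it after both counts were seen. Knockout arrays were fitted with eBayes, without CLP replicate 1. The scripts were tested on simulated data. The members, the lists, the motifs and the tests were chosen with earlier results of these data known.

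Values of every array are given for members past the threshold, for the 2 members of smallest p in each direction of each comparison, and for Mki67, Top2a, Cdk1, the D cyclins, Mcm2, Pcna, Cdkn1a, Cdkn1b and Polb. Ccnb1 was on that list but is not measured, and Birc5 was added after its values were seen. The arrays, 3 a group, limit the precision.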

Additional observations from a re-analysis of the deposited data

Results flagged for a closer look

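In 3 of the 44 members, 1 of the 6 wild-type CLP arrays lay far from the other 5 by Dixon's criterion, which chance passes in about 1 of 20 cases. Mcm2 was at -2.28 in Max Dep replicate 2, Kif20a at 2.47 in Min Dep replicate 2 and Prc1 at 1.64 in Min Dep replicate 1.

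Ccnd1 differed between CLP and sham by -1.90 in wild type and by 3.39 log units in the knockout, with every CLP array on 1 side of every sham array in each genotype and the sides opposite. The difference between genotypes was not tested, because each genotype has its own table, scale and array model.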

How the results depend on the processing

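No gene's call reversed in the alternatives run. The count of members past the threshold, 1 in each wild-type comparison with sham, became 0 with eBayes moderation and with the 5′ minus 3′ control covariate, in Max Dep and in Min Dep against sham with only the groups compared, and in Min Dep against sham when every probe set was tested. Leaving out 1 array at a time gave 0 to 1 in each of these comparisons: CLP against sham kept 1 when Min Dep replicate 2 or Max Dep replicate 3 was left out, Max Dep against sham without sham replicate 3, Min Dep replicate 2 or Min Dep replicate 3, and Min Dep against sham without Min Dep replicate 2. The Polb difference for CLP against sham ranged from 1.78 to 2.02, with adjusted p from 0.0143 to 0.0969. In Max Dep against Min Dep the count was 0 in each alternative. In the knockout it was 0, but 3 (Ccnd1, Cdk2 and Mki67) with all 6 arrays, where 295 of 12393 genes passed (2.38%). The p-values of that setting are too small if knockout CLP replicate 1 is not an independent array. Over all genes, CLP against sham gave 89 genes, and 0 with eBayes, 513 with every probe set, 49 without suffixed probe sets, 179 with the array standardisation undone, 1 with the control covariate, and 0 to 186 leaving out 1 array. Max Dep against sham gave 56, and from 0 to 220. Min Dep against sham gave 7, and from 0 to 112. Max Dep against Min Dep gave 0, and 2 with the standardisation undone. That setting also moved the median of all genes to 0.27 from 0.12 in Min Dep against sham and to -0.28 from -0.08 in Max Dep against Min Dep, where the mitosis genes stood at -0.84. Members that did not pass carry no direction of their own: the sign changed in at least 1 alternative for 14 of 44 in CLP against sham and for 15 of 44 in the knockout. The 12 mitosis genes were positive in CLP against sham in 8 of 8 without suffixed probe sets and in at least 10 of 12 in the other alternatives. They were negative in Max Dep against Min Dep in 8 of 8 without suffixed probe sets and in at least 9 of 12 otherwise, and in the knockout positive in 6 to 11 of 12, or 3 of 8 without suffixed probe sets. Pooling the septic hearts as 1 group was chosen after seeing the data and kept Polb (adjusted p = 0.0269). Where a lone knockout CLP array remained, it was assumed to vary like the others. The causes were not tested. No paired analysis was possible because the labels carry no replicate numbers.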
